A study of Mus musculus with 18 samples.

Results

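Mitochondrial ribosomal proteins were followed through RNA-seq and Ribo-seq of the mouse cerebral cortex. The members were the genes whose symbol begins with *Mrpl* or *Mrps* and goes on with a number and at most a letter from a to d, and they were 78 of the 55153 genes in the RNA-seq table, each with an entry in both assays. Of these, 51 encode proteins of the large subunit, among them *Mrps18a* and *Mrps30* despite their names, 26 encode proteins of the small subunit, and 1, *Mrps36*, is named as a ribosomal protein but is known as a part of the oxoglutarate dehydrogenase complex. The study asked what the m6A demethylase Fto and the m6A methyltransferase Mettl3 do in the developing cortex, and measured RNA by RNA-seq and ribosome-protected fragments, called footprints here, by Ribo-seq. Cortices were taken at embryonic day 15.5 from wild type mice (Ctrl), from mice with floxed *Fto* alleles and *Emx1*-Cre (*F*-cKO), and from mice with floxed *Mettl3* alleles and *Emx1*-Cre (*M*-cKO). Each genotype had 3 libraries per assay, which makes 18 libraries.

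The labels give the strain of all groups as C57BL/6, whereas the methods describe floxed lines on a C57/BL6 and 129 background. Cre and the floxed alleles are absent together from Ctrl, so deletion, Cre and genetic background cannot be told apart. *Emx1*-Cre acts in the cortical excitatory lineage and leaves interneurons, vessels, microglia and meninges undeleted. The labels call the 3 libraries of a group biological repeats, but the number of animals or litters behind a library is not clear from the sources used here, and *P* values measure the spread between these libraries only. Both knockouts were compared with the same 3 Ctrl libraries. In bulk tissue, fewer cells of a type and less RNA per cell cannot be told apart.

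Mitochondria keep their own ribosome, which translates the few messages encoded in mitochondrial DNA, all for proteins of the respiratory chain and ATP synthase. Its RNAs come from mitochondrial DNA, while all its proteins are encoded in the nucleus, made on cytosolic ribosomes and imported, and many of them have counterparts in the bacterial ribosome while others were gained by mitochondria. Neurons and their progenitors depend on oxidative metabolism to different degrees, and inherited loss of single mitoribosomal proteins causes disease in which the brain is often affected.

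Counted reads per RNA-seq library were between 18504094 and 22592406. Counted footprints were between 13764136 (*M*-cKO replicate 2) and 35853227 (Ctrl replicate 1), apart from *F*-cKO replicate 2 with 10973699. This *F*-cKO library stood apart from all others in Ribo-seq. Its log2 values of RPKM plus 1 correlated with those of the other *F*-cKO libraries at Pearson's r of 0.836 and 0.849. All other pairs of the same genotype were at 0.935 to 0.987, and RNA-seq pairs, on FPKM plus 1, at 0.981 to 0.992. Genes with a mean level of at least 1 were used, 12460 in Ribo-seq and 13513 in RNA-seq. These correlations are across genes, which are not independent replicates. Summed footprints on 8 endothelial markers, of which *Cldn5* was the most abundant and none was at 0 in all libraries, were 8.55, 11.1 and 13.3 RPKM in Ctrl, 5.39, 7.97 and 6.82 in *M*-cKO, with 6.49, 97.1 and 10.9 in *F*-cKO. Summed footprints on 11 cortical markers were 1829.8 RPKM in this library and between 3472 and 4279 in the others. The median over the 78 members was 9.55 RPKM in this library and between 14.9 and 18.6 in the other 8. Counts of called members and medians in footprints of *F*-cKO are therefore given with and without it, while single genes are given with it.

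The targeted genes were examined first. *Fto* RNA was at 10.8, 11.2 and 8.37 FPKM in Ctrl, 13.6, 12.1 and 13.4 in *M*-cKO, with 3.26, 7.56 and 2.43 in *F*-cKO, lower in *F*-cKO (−1.21 ± 0.33 SE, adjusted *P* = 0.0298), and each *F*-cKO value was below each Ctrl value. *Fto* footprints were at 25.9, 22 and 17.6 RPKM in Ctrl, 26.1, 23.7 and 22.1 in *M*-cKO, with 3.91, 2.11 and 4.04 in *F*-cKO. They were lower in all 3 *F*-cKO libraries without a call in the footprint test (−2.67 ± 0.25 SE, adjusted *P* = 0.350), in a group that holds replicate 2. *Mettl3* RNA was at 5.84, 6.43 and 5.07 FPKM in Ctrl, 8.61, 7.82 and 8.34 in *M*-cKO, with 6.30, 6.12 and 5.25 in *F*-cKO. It was higher in *M*-cKO (0.50 ± 0.09 SE, adjusted *P* = 0.00221), against the direction of a deletion, in a count over the whole gene that also takes reads outside the deleted exons. *Mettl3* footprints were at 9.16, 9.25 and 9.93 RPKM in Ctrl, 6.78, 6.02 and 6.40 in *M*-cKO, with 9.64, 8.93 and 8.78 in *F*-cKO, below Ctrl in each *M*-cKO library (−0.55 ± 0.09 SE, adjusted *P* = 0.0157). The RNA-seq libraries are therefore called *M*-cKO by their labels, since *Mettl3* RNA does not check them.

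In Ctrl cortex the members spanned a wide range of levels. Per gene length, the median member was at 14.0 FPKM in Ctrl RNA and at 17.9 RPKM in Ctrl footprints. The highest mean RNA levels in Ctrl were those of *Mrpl34* (98.7 FPKM), *Mrps21* (76.7 FPKM), *Mrpl52* (56.1 FPKM), *Mrpl41* (50.9 FPKM) and *Mrpl28* (43.6 FPKM), which encode counterparts of bacterial proteins in *Mrpl34*, *Mrps21* and *Mrpl28* and mitochondria-specific proteins in *Mrpl52* and *Mrpl41*. The lowest were *Mrps30* (2.99 FPKM), *Mrps18b* (3.17 FPKM) and *Mrpl33* (3.21 FPKM), besides *Mrps10* and *Mrpl53*, whose RNA counts were close to 0. *Mrpl53* had no RNA read in any of the 9 libraries, and *Mrps10* had 1 read in all, in Ctrl replicate 2, although *Mrps10* had between 121 and 452 footprints per library. Both are listed at or next to 0 in RNA, and this says nothing firm on whether the genes are transcribed. The highest mean footprint levels in Ctrl were those of *Mrpl52* (82.2 RPKM), *Mrps21* (67.2 RPKM), *Mrpl28* (65.6 RPKM), *Mrpl20* (57.1 RPKM) and *Mrps23* (54.5 RPKM). The lowest were *Mrpl53* (0.0335 RPKM), *Mrpl33* (1.53 RPKM), *Mrps10* (1.78 RPKM), *Mrpl23* (2.91 RPKM) and *Mrps18b* (3.93 RPKM).

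Translational efficiency (TE), the mean RPKM of footprints divided by the mean FPKM of RNA, had a median of 1.32 over 77 members in Ctrl, and of 1.18 in *F*-cKO and 1.17 in *M*-cKO over 76 members. Protein-coding genes with at least 1 FPKM had medians of 0.855, 0.871 and 0.826. The members' median was thus above that of all such genes in each genotype, on a ratio of 2 separately scaled units that has no absolute meaning. With 1 Ribo-seq library at a time the median was 1.32, 1.27 and 1.32 in Ctrl, 1.17, 1.06 and 1.22 in *M*-cKO, with 1.43, 0.758 and 1.40 in *F*-cKO, so the low *F*-cKO value came with replicate 2, while all *M*-cKO values were below all Ctrl values. The protein-coding median was lower in *M*-cKO than in Ctrl too. On scaled counts (the test given below) the members' median log2 change of TE in *M*-cKO was −0.01, beside 0.02 over all genes. There 38 members were above 0 and 38 below, so the lower ratio was not seen on scaled counts. The lowest TE in Ctrl belonged to *Mrpl23* (0.269), *Mrps12* (0.323), *Mrps36* (0.357), *Mrpl27* (0.394) and *Mrps34* (0.439). The highest belonged to *Mrps18c* (3.78), *Mrps28* (3.18) and *Mrps14* (3.06), leaving aside *Mrps10* (915, on 1 RNA read) and *Mrps23* (16.9). *Mrps23* had between 31 and 221 RNA reads per library and between 359 and 3042 footprints, and its gene overlaps *Cuedc1* by 35 bases, so its ratio is uncertain.

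The paralogs *Mrps18a*, *Mrps18b* and *Mrps18c* are related to the same bacterial protein and are built into different places, the first into the large subunit and the others into the small subunit. In the class counts below, *Mrps18c* is taken as the bacterial counterpart, and *Mrps18a* and *Mrps18b* are counted as specific to mitochondria. *Mrps18a* RNA was at 8.37, 8.68 and 8.69 FPKM in Ctrl, 8.45, 8.51 and 9.50 in *M*-cKO, with 6.77, 7.22 and 6.93 in *F*-cKO. *Mrps18b* RNA was at 3.31, 2.64 and 3.55 FPKM in Ctrl, 3.94, 3.93 and 4.18 in *M*-cKO, with 3.21, 3.60 and 4.41 in *F*-cKO. *Mrps18c* RNA was at 14.5, 12.3 and 14.6 FPKM in Ctrl, 10.9, 11.8 and 12.3 in *M*-cKO, with 13.4, 10.3 and 12.2 in *F*-cKO. In every library *Mrps18c* was the most abundant of these paralogs per gene length and *Mrps18b* the least. The order was the same in footprints, where *Mrps18c* was at 48.4, 57.7 and 50.7 RPKM in Ctrl, 31.8, 21 and 32.7 in *M*-cKO, with 55.9, 38.1 and 66.5 in *F*-cKO. TE in Ctrl was 3.78 for *Mrps18c*, 1.52 for *Mrps18a* and 1.24 for *Mrps18b*.

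In *M*-cKO cortices, RNA of 17 of the 76 members tested was higher than in Ctrl and RNA of 4 was lower (quasi-likelihood test of edgeR, called at an adjusted *P* below 0.05 after Benjamini-Hochberg correction). That is 22.4% higher and 5.26% lower, compared with 15.5% higher and 14.1% lower among all 16968 genes tested. The median log2 fold change was 0.06 over the members and −0.01 over all genes, and 50 members were above 0 and 26 below. Fold changes above 1 on the log2 scale were reached by *Mrpl43* and *Mrps34* alone. Where libraries of called members are said not to overlap, here or for footprints and *F*-cKO, the members were picked by a test on the same libraries. Such separation is no further support for a call, and its share over all genes was not counted. Summed over all 78 members, RNA was at 1388, 1436 and 1422 FPKM in Ctrl, 1605, 1550.5 and 1713 in *M*-cKO, with 1324, 1306 and 1292 in *F*-cKO, with each *M*-cKO library above each Ctrl library. Without Ctrl replicate 1 the members called lower numbered 2, without Ctrl replicate 3 they numbered 0, and without *M*-cKO replicate 1 or 2 they numbered 1 each, while 10.2%, 8.65%, 9.9% and 9.69% of all genes were called lower.

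Among proteins of the large subunit that are specific to mitochondria, *Mrpl43* stood first. *Mrpl43* RNA was at 38.1, 39.1 and 40.1 FPKM in Ctrl, 87.5, 81.8 and 92 in *M*-cKO, with 37.7, 33.7 and 32.8 in *F*-cKO. All *M*-cKO libraries were far above all *F*-cKO libraries and all Ctrl libraries, with a log2 fold change over Ctrl of 1.15 ± 0.07 SE, adjusted *P* = 6.97e-06. *Mrpl46*, whose protein sits at the base of the large subunit's central protuberance, was at 13.8, 15.6 and 14.6 FPKM in Ctrl, 26.4, 23.1 and 27 in *M*-cKO, with 14.7, 15.3 and 13 in *F*-cKO, higher in every *M*-cKO library than in any other (0.78 ± 0.09 SE, adjusted *P* = 0.000142). *Mrpl51* RNA was at 13.9, 14 and 13.4 FPKM in Ctrl, 19.7, 19.6 and 20.4 in *M*-cKO, with 13, 13 and 12.3 in *F*-cKO (*M*-cKO over Ctrl, log2 0.52 ± 0.06 SE, adjusted *P* = 0.000128). *Mrpl50* RNA was at 25.6, 23.8 and 24.8 FPKM in Ctrl, 31.9, 34.9 and 30.9 in *M*-cKO, with 23.4, 23.3 and 23.1 in *F*-cKO (*M*-cKO over Ctrl, log2 0.39 ± 0.07 SE, adjusted *P* = 0.00192). For both genes the *M*-cKO libraries lay above all others, by less than for *Mrpl43*. *Mrpl57* RNA was at 15.7, 18.5 and 16.3 FPKM in Ctrl, 21.6, 22.6 and 23.6 in *M*-cKO, with 14.7, 16 and 11.1 in *F*-cKO (*M*-cKO over Ctrl, log2 0.42 ± 0.08 SE, adjusted *P* = 0.00231), again with all *M*-cKO libraries highest.

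Among large subunit proteins with a bacterial counterpart, *Mrpl14*, which lies at the interface with the small subunit, was at 32.4, 35.5 and 33.2 FPKM in Ctrl, 53.8, 50.1 and 57 in *M*-cKO, with 28.7, 31.7 and 28.5 in *F*-cKO (*M*-cKO over Ctrl, log2 0.66 ± 0.08 SE, adjusted *P* = 0.000155). *Mrpl16*, a protein near the peptidyl transferase centre, was at 16.9, 18.9 and 17.6 FPKM in Ctrl, 27.1, 24.4 and 30.1 in *M*-cKO, with 18.4, 17.2 and 17.5 in *F*-cKO (*M*-cKO over Ctrl, log2 0.60 ± 0.10 SE, adjusted *P* = 0.00105). For both genes the *M*-cKO libraries were apart from Ctrl and *F*-cKO. *Mrpl27*, which also reaches towards the peptidyl transferase centre, was at 32, 36 and 33.6 FPKM in Ctrl, 44.1, 42.8 and 48.8 in *M*-cKO, with 32.5, 27.6 and 28.6 in *F*-cKO (*M*-cKO over Ctrl, log2 0.41 ± 0.08 SE, adjusted *P* = 0.00367). The other large subunit members called higher were *Mrpl15* (log2 fold change 0.28), *Mrpl12* (0.26), which forms the flexible stalk that recruits translation factors, *Mrpl54* (0.32) and *Mrpl44* (0.31). The *M*-cKO libraries of these 4 did not overlap with Ctrl, in genes picked by a test on the same libraries. The call was lost for *Mrpl12* without Ctrl replicate 1 (0.0691), for *Mrpl54* without Ctrl replicate 1 (0.0945) and *M*-cKO replicate 1 (0.0683) and for *Mrpl44* without Ctrl replicate 1 (0.0527), Ctrl replicate 3 (0.0685), *M*-cKO replicate 1 (0.0809) and *M*-cKO replicate 3 (0.0560), with the adjusted *P* in parentheses.

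In the small subunit, *Mrps34*, a protein specific to mitochondria, was at 11.6, 11.7 and 10.6 FPKM in Ctrl, 22.7, 22.2 and 24.4 in *M*-cKO, with 10.8, 12.4 and 11.1 in *F*-cKO. The *M*-cKO libraries were all above the other 6, a log2 fold change over Ctrl of 1.02 ± 0.08 SE, adjusted *P* = 1.88e-05. *Mrps2*, with a bacterial counterpart, was at 12.5, 13.2 and 12.7 FPKM in Ctrl, 23.2, 22.6 and 22 in *M*-cKO, with 12.9, 13.3 and 12.4 in *F*-cKO (*M*-cKO over Ctrl, log2 0.81 ± 0.06 SE, adjusted *P* = 2.11e-05). *Mrps12*, a protein of the decoding centre, was at 26, 26.5 and 29.2 FPKM in Ctrl, 37.6, 34.9 and 42.7 in *M*-cKO, with 25.6, 26.3 and 20.7 in *F*-cKO (*M*-cKO over Ctrl, log2 0.49 ± 0.09 SE, adjusted *P* = 0.00280). For these genes too the *M*-cKO libraries did not overlap with those of Ctrl or *F*-cKO. *Mrps7*, in the head of the subunit, was higher by 0.43 and *Mrps17* by 0.23 on the log2 scale, the last not without Ctrl replicate 1 (0.0781), Ctrl replicate 3 (0.0833) and *M*-cKO replicate 1 (0.107), adjusted *P* in parentheses. By class, 12 of 50 large subunit members tested were higher and 3 lower, and 5 of 25 small subunit members were higher and 1 lower. With a bacterial counterpart 9 of 45 were higher and 2 lower, and among those specific to mitochondria 8 of 30 were higher and 2 lower.

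The 4 members with lower RNA in *M*-cKO were 3 of the large and 1 of the small subunit. *Mrpl42* was at 10.9, 11.3 and 12.5 FPKM in Ctrl, 9.25, 9.74 and 9.11 in *M*-cKO, with 9.95, 10.7 and 9.18 in *F*-cKO (*M*-cKO over Ctrl, log2 −0.31 ± 0.08 SE, adjusted *P* = 0.0130). *Mrpl47*, at the exit of the peptide tunnel, was at 5.14, 4.71 and 4.92 FPKM in Ctrl, 4.18, 4.09 and 3.56 in *M*-cKO, with 5.19, 4.43 and 4.88 in *F*-cKO (*M*-cKO over Ctrl, log2 −0.33 ± 0.10 SE, adjusted *P* = 0.0236). *Mrps22*, specific to mitochondria, was at 6.41, 5.73 and 6.30 FPKM in Ctrl, 4.87, 4.76 and 5.17 in *M*-cKO, with 6.93, 6.21 and 6.41 in *F*-cKO (*M*-cKO over Ctrl, log2 −0.33 ± 0.09 SE, adjusted *P* = 0.0166). In these genes, picked by a test on the same libraries, no *M*-cKO library overlapped with Ctrl. *Mrpl30* was at 24.3, 24.4 and 24.8 FPKM in Ctrl, 20.7, 20.7 and 23 in *M*-cKO, with 20.6, 20.6 and 19.5 in *F*-cKO (*M*-cKO over Ctrl, log2 −0.20 ± 0.06 SE, adjusted *P* = 0.0361), with the *F*-cKO libraries lower still. Each of the 4 calls rested on single libraries, and the adjusted *P* without them is given in parentheses. That of *Mrpl42* was lost without Ctrl replicate 3 (0.0563) and *M*-cKO replicate 1 (0.0505), that of *Mrpl47* without Ctrl replicate 1 (0.0859), Ctrl replicate 3 (0.0618), *M*-cKO replicate 2 (0.0525) and *M*-cKO replicate 3 (0.0717), that of *Mrps22* without Ctrl replicate 1 (0.0664), Ctrl replicate 3 (0.0539), *M*-cKO replicate 1 (0.0626) and *M*-cKO replicate 2 (0.0670) and that of *Mrpl30* without Ctrl replicate 1 (0.0810), Ctrl replicate 2 (0.0812), Ctrl replicate 3 (0.0950), *M*-cKO replicate 1 (0.152) and *M*-cKO replicate 2 (0.122).

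**Figure D1:**
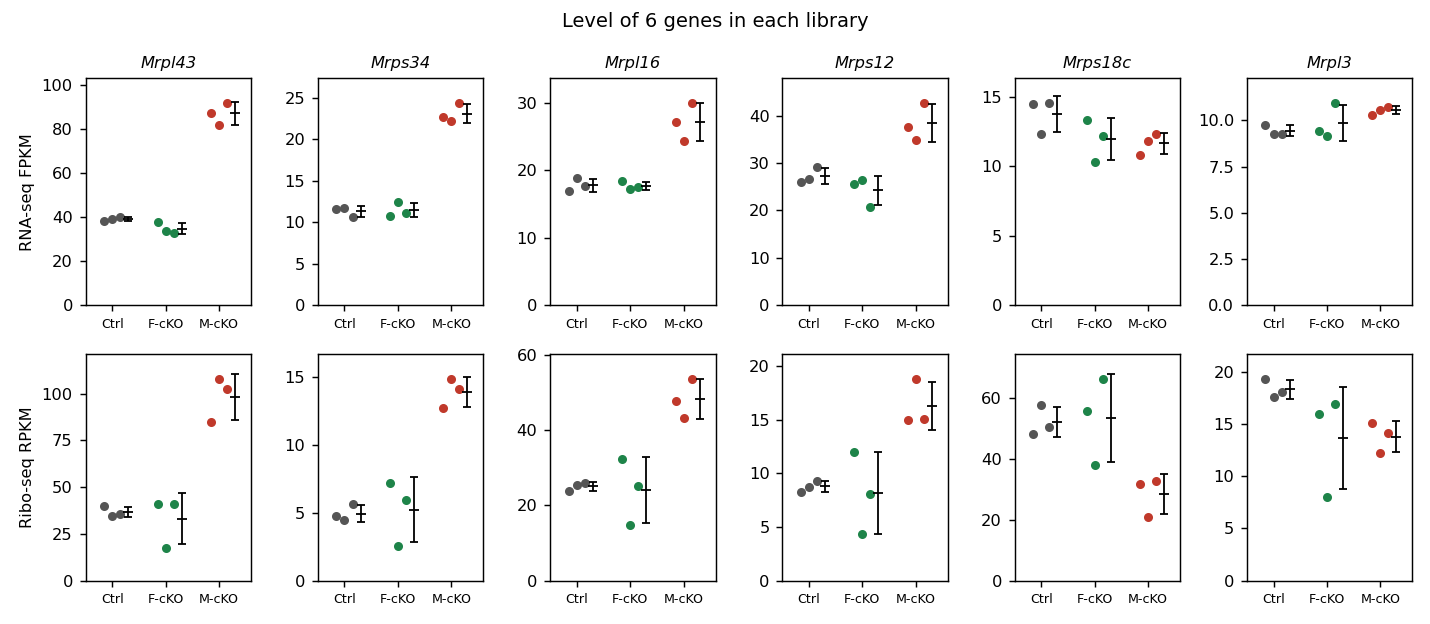
RNA in FPKM (upper panels) and footprints in RPKM (lower panels) of 6 mitochondrial ribosomal protein genes in each library of Ctrl (grey), *F*-cKO (green) and *M*-cKO (red), with the mean and SD of the 3 libraries in black. For *Mrpl43*, *Mrps34*, *Mrpl16* and *Mrps12* all *M*-cKO points lay above all others in both assays, whereas for *Mrps18c* and *Mrpl3* footprints of *M*-cKO lay below all Ctrl points.

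Several members lie over or next to other genes, and the counting is not stated to use strand, so reads of overlapping genes cannot be told apart. By RefSeq, 20 of the 78 members overlap another protein-coding gene, among them 7 of the 17 with higher RNA in *M*-cKO. *Mrpl43* (chr19:45005014-45006442, minus strand) overlaps *Twnk* (chr19:45005663-45012764, plus strand), the gene of the mitochondrial DNA helicase, by 780 bases. *Twnk* RNA was at 11, 11.3 and 10.4 FPKM in Ctrl, 18.3, 16.6 and 18.4 in *M*-cKO, with 12.5, 11.5 and 11.3 in *F*-cKO and was also higher in *M*-cKO (0.69 ± 0.07 SE, adjusted *P* = 7.69e-05). *Twnk* footprints were at 11.9, 11.9 and 11.1 RPKM in Ctrl, 12.1, 12 and 11.3 in *M*-cKO, with 11.4, 11.8 and 11.9 in *F*-cKO and hardly differed (0.03 ± 0.10 SE, adjusted *P* = 0.848). The RNA of both genes thus moved together and the footprints did not, and how many *Twnk* reads come from *Mrpl43* was not tested. *Mrpl27* overlaps *Eme1*, called higher at 0.79, by 67 bases. *Mrpl14* overlaps *Tmem63b* by 622 bases, *Mrps2* overlaps *1700007K13Rik* by 374 bases, *Mrpl57* overlaps *Ska3* by 64 bases, and *Mrps7* overlaps *Gga3* and *Mif4gd* by 378 and 119 bases. Among these, *Gga3* was called lower (−0.19) and the others had no call. *Mrpl44* overlaps *Wdfy1* by 126 bases, and *Wdfy1* was lower (−0.33) where *Mrpl44* was higher. The 78 members lie on 17 chromosomes, with at most 11 on a single chromosome (chromosome 11).

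Footprints in *M*-cKO were higher than in Ctrl for 10 of the 77 members tested and lower for 7 (13% and 9.09%), compared with 7.13% higher and 7.5% lower among all 14314 genes tested. The median log2 fold change was −0.04 over members and −0.00 over all genes. Of the 10 members with more footprints, 9 were among the 17 with higher RNA, and of the 7 with fewer, 1 (*Mrps22*) was among the 4 with lower RNA. No member was called in opposite directions. Across the 76 members tested in both assays, Pearson's r between the RNA and footprint log2 fold changes was 0.834 (Spearman's rho 0.673), compared with 0.494 across all 13208 genes. Genes are not independent replicates, and the wide spread of a few members weighs on r. With the libraries of all genotypes in a single fit, the calls numbered 0 higher and 0 lower, beside 0.202% and 0.0419% of all genes. Without Ctrl replicate 1, 2 or 3, the calls were 5, 3 and 3 higher and 0 lower each time, while the share of all genes called fell to 1.61%, 0.804% and 1.88% higher and 1.117%, 0.433% and 1.34% lower. Without *M*-cKO replicate 1 or 2 there was 1 lower each, beside 2.65% and 3.66% of all genes.

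*Mrps34* footprints were at 4.76, 4.44 and 5.64 RPKM in Ctrl, 12.7, 14.9 and 14.1 in *M*-cKO, with 7.18, 2.55 and 5.92 in *F*-cKO (*M*-cKO over Ctrl, log2 1.5 ± 0.15 SE, adjusted *P* = 0.00401). *Mrpl43* footprints were at 39.7, 34.4 and 35.9 RPKM in Ctrl, 84.6, 108 and 102 in *M*-cKO, with 41, 17.4 and 41 in *F*-cKO (*M*-cKO over Ctrl, log2 1.44 ± 0.13 SE, adjusted *P* = 0.00361). Both were above all Ctrl and *F*-cKO libraries in all 3 *M*-cKO libraries, as their RNA was. *Mrpl16* footprints were at 23.7, 25.5 and 26 RPKM in Ctrl, 47.7, 43.2 and 53.7 in *M*-cKO, with 32.4, 14.8 and 25.1 in *F*-cKO (*M*-cKO over Ctrl, log2 0.95 ± 0.11 SE, adjusted *P* = 0.00504). *Mrps2* footprints were at 20.2, 17.5 and 16.8 RPKM in Ctrl, 29.7, 25.2 and 32.6 in *M*-cKO, with 16.4, 11.2 and 19.1 in *F*-cKO (*M*-cKO over Ctrl, log2 0.69 ± 0.11 SE, adjusted *P* = 0.0143). *Mrpl46* footprints were at 38.1, 34.2 and 31.6 RPKM in Ctrl, 67.9, 46.4 and 61.3 in *M*-cKO, with 41.8, 19.4 and 40 in *F*-cKO (*M*-cKO over Ctrl, log2 0.76 ± 0.14 SE, adjusted *P* = 0.0167). In each of these genes *F*-cKO replicate 2 was the lowest of the 9 libraries. The calls of *Mrps34*, *Mrpl43* and *Mrpl16* held without any single library and were lost with all genotypes in a single fit, at adjusted *P* values of 0.0876, 0.0736 and 0.107. That of *Mrps2* was lost without Ctrl replicate 2 (0.0787) and Ctrl replicate 3 (0.0542) and that of *Mrpl46* without Ctrl replicate 2 (0.0836) and Ctrl replicate 3 (0.0600), adjusted *P* in parentheses.

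*Mrps12* footprints were at 8.31, 8.78 and 9.28 RPKM in Ctrl, 14.9, 18.8 and 15.1 in *M*-cKO, with 12, 4.39 and 8.11 in *F*-cKO (*M*-cKO over Ctrl, log2 0.91 ± 0.17 SE, adjusted *P* = 0.0177). *Mrpl14* footprints were at 27.2, 22.8 and 24 RPKM in Ctrl, 41, 35.3 and 54.5 in *M*-cKO, with 25, 8.47 and 24.1 in *F*-cKO (*M*-cKO over Ctrl, log2 0.83 ± 0.16 SE, adjusted *P* = 0.0203). *Mrpl27* footprints were at 12.1, 13.9 and 14 RPKM in Ctrl, 19.9, 21.4 and 23.3 in *M*-cKO, with 17.1, 7.35 and 14.8 in *F*-cKO (*M*-cKO over Ctrl, log2 0.70 ± 0.13 SE, adjusted *P* = 0.0187). The *M*-cKO libraries of these genes were all above those of Ctrl. *Mrps7* was higher by 0.48 on the log2 scale. *Mrps11*, a small subunit protein with a bacterial counterpart, was the 1 member with more footprints but no RNA call. Its footprints were at 14.2, 10.9 and 10.7 RPKM in Ctrl, 16.2, 18.3 and 18.2 in *M*-cKO, with 15.5, 5.39 and 13 in *F*-cKO (*M*-cKO over Ctrl, log2 0.57 ± 0.15 SE, adjusted *P* = 0.0422) and its RNA was at 14.5, 13.8 and 14.4 FPKM in Ctrl, 15.1, 15 and 15.3 in *M*-cKO, with 13.8, 14.4 and 13.2 in *F*-cKO (*M*-cKO over Ctrl, log2 0.08 ± 0.07 SE, adjusted *P* = 0.438). *Mrps11* and *Mrpl46* lie head to head on chromosome 7, with 41 bases between their starts at 78783131 and 78783089, so the RNA of 1 gene of this pair was called and the footprints of both were. With the adjusted *P* in parentheses, the call of *Mrps12* was lost without Ctrl replicate 1 (0.0665), Ctrl replicate 2 (0.0853) and Ctrl replicate 3 (0.0519), that of *Mrpl14* without Ctrl replicate 1 (0.0578), Ctrl replicate 2 (0.0951) and Ctrl replicate 3 (0.0702) and that of *Mrpl27* without Ctrl replicate 1 (0.0684), Ctrl replicate 2 (0.0853) and Ctrl replicate 3 (0.0542). That of *Mrps7* was lost without Ctrl replicate 1 (0.0877), Ctrl replicate 2 (0.167), Ctrl replicate 3 (0.109), *M*-cKO replicate 1 (0.0933) and *M*-cKO replicate 3 (0.0734), and that of *Mrps11* without Ctrl replicate 1 (0.0528), Ctrl replicate 2 (0.158), Ctrl replicate 3 (0.114), *M*-cKO replicate 1 (0.0584), *M*-cKO replicate 2 (0.0764) and *M*-cKO replicate 3 (0.0629).

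Of the 7 members with fewer footprints in *M*-cKO, 4 are large subunit and 3 small subunit proteins. *Mrps18c* footprints were at 48.4, 57.7 and 50.7 RPKM in Ctrl, 31.8, 21 and 32.7 in *M*-cKO, with 55.9, 38.1 and 66.5 in *F*-cKO (*M*-cKO over Ctrl, log2 −0.87 ± 0.16 SE, adjusted *P* = 0.0177). *Mrpl9* footprints were at 22, 21.6 and 19.2 RPKM in Ctrl, 13.7, 12.4 and 16.1 in *M*-cKO, with 19.4, 13.7 and 22.4 in *F*-cKO (*M*-cKO over Ctrl, log2 −0.57 ± 0.12 SE, adjusted *P* = 0.0231). *Mrps15* footprints were at 34.7, 34.5 and 29.8 RPKM in Ctrl, 26.6, 21.8 and 24 in *M*-cKO, with 26.1, 22.4 and 34.6 in *F*-cKO (*M*-cKO over Ctrl, log2 −0.44 ± 0.11 SE, adjusted *P* = 0.0359). The *M*-cKO libraries of all 3 were below all Ctrl libraries. *Mrps22* footprints were at 16.3, 17.9 and 18.6 RPKM in Ctrl, 12.6, 12.1 and 14.2 in *M*-cKO, with 24, 10.8 and 18.6 in *F*-cKO (*M*-cKO over Ctrl, log2 −0.43 ± 0.10 SE, adjusted *P* = 0.0314). *Mrpl3*, a protein near the peptidyl transferase centre, was at 19.3, 17.5 and 18.1 RPKM in Ctrl, 15.1, 12.2 and 14.1 in *M*-cKO, with 16, 8.02 and 16.9 in *F*-cKO (*M*-cKO over Ctrl, log2 −0.40 ± 0.09 SE, adjusted *P* = 0.0292). *Mrpl35* changed by −0.40 ± 0.10 SE, adjusted *P* = 0.0401 and *Mrpl24*, near the tunnel exit, by −0.37 ± 0.09 SE, adjusted *P* = 0.0407. In these 4 as well, picked by a test on the same libraries, no *M*-cKO library reached the Ctrl range. The RNA of *Mrps18c*, *Mrpl9*, *Mrps15*, *Mrpl3*, *Mrpl35* and *Mrpl24* had no call, at log2 fold changes of −0.25, −0.13, −0.13, 0.15, −0.05 and 0.01. With the adjusted *P* in parentheses, the footprint call was lost for *Mrps18c* without Ctrl replicate 1 (0.0543), Ctrl replicate 2 (0.0848) and Ctrl replicate 3 (0.0608), for *Mrpl9* without Ctrl replicate 1 (0.0806), Ctrl replicate 2 (0.105), Ctrl replicate 3 (0.0593), *M*-cKO replicate 1 (0.0707) and *M*-cKO replicate 2 (0.0545), and for *Mrps15* without Ctrl replicate 1 (0.113), Ctrl replicate 2 (0.147), Ctrl replicate 3 (0.0698), *M*-cKO replicate 1 (0.0620), *M*-cKO replicate 2 (0.0872) and *M*-cKO replicate 3 (0.0576). It was lost for *Mrps22* without Ctrl replicate 1 (0.0665), Ctrl replicate 2 (0.128), Ctrl replicate 3 (0.117), *M*-cKO replicate 1 (0.0941) and *M*-cKO replicate 2 (0.0775), and for *Mrpl3* without Ctrl replicate 1 (0.0929), Ctrl replicate 2 (0.0982), Ctrl replicate 3 (0.0932), *M*-cKO replicate 1 (0.0577) and *M*-cKO replicate 2 (0.0719). It was lost for *Mrpl35* without Ctrl replicate 1 (0.123), Ctrl replicate 2 (0.146), Ctrl replicate 3 (0.0709), *M*-cKO replicate 1 (0.0948), *M*-cKO replicate 2 (0.0881) and *M*-cKO replicate 3 (0.0547), and for *Mrpl24* without Ctrl replicate 1 (0.109), Ctrl replicate 2 (0.144), Ctrl replicate 3 (0.133), *M*-cKO replicate 1 (0.0620), *M*-cKO replicate 2 (0.103) and *M*-cKO replicate 3 (0.0647).

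**Figure D2:**
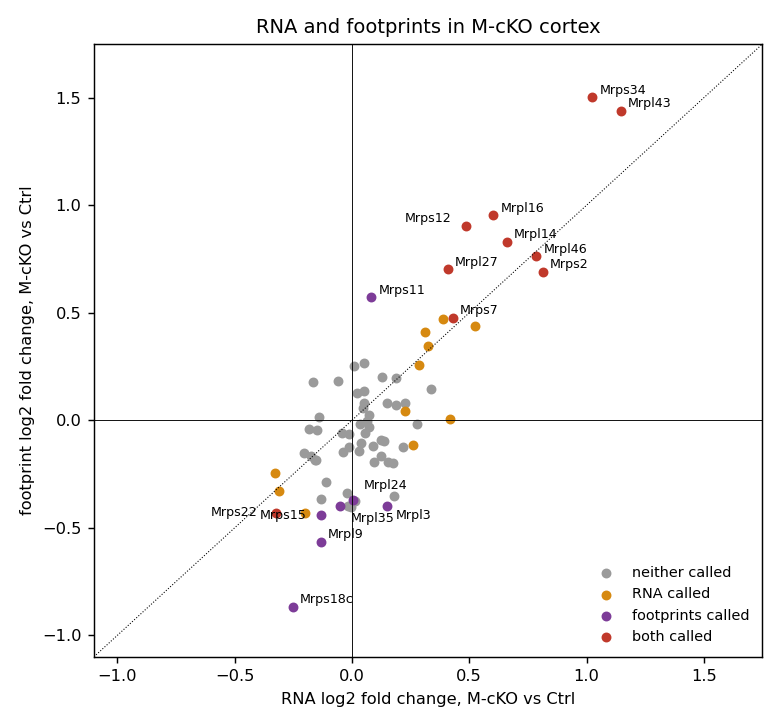
Log2 fold change of RNA (x axis) and of footprints (y axis) in *M*-cKO against Ctrl for the 76 mitochondrial ribosomal protein genes tested in both assays, colored by which test called the gene, with the 17 genes called in footprints named and a dotted line where both changes are equal. Most genes lay near 0 on both axes, and 9 genes were called higher in both assays.

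Footprints relative to RNA were tested as the interaction of assay and genotype. In *M*-cKO against Ctrl, 0 of 76 members were higher and 1 was lower with edgeR, compared with 1.89% higher and 1.18% lower among all 13208 genes. At an unadjusted *P* below 0.05 the members numbered 8 higher and 5 lower, beside 1624 and 1217 of all genes, and DESeq2 called 2 higher and 1 lower, beside 3.99% and 3.86% of all genes. The member called was *Mrpl3*, with a log2 change of TE of −0.48 ± 0.10 SE, adjusted *P* = 0.0290 and a TE of 1.94 in Ctrl, 1.31 in *M*-cKO, with 1.38 in *F*-cKO. *Mrpl3* RNA was at 9.77, 9.29 and 9.25 FPKM in Ctrl, 10.3, 10.6 and 10.7 in *M*-cKO, with 9.42, 9.17 and 11 in *F*-cKO, above Ctrl in all 3 *M*-cKO libraries while its footprints were below. The call of *Mrpl3* was lost without RNA-seq Ctrl replicate 1 (0.0546), RNA-seq Ctrl replicate 2 (0.0782), RNA-seq Ctrl replicate 3 (0.0847), RNA-seq *M*-cKO replicate 1 (0.0711), RNA-seq *M*-cKO replicate 2 (0.0698), RNA-seq *M*-cKO replicate 3 (0.0693), Ribo-seq Ctrl replicate 1 (0.0569) and Ribo-seq Ctrl replicate 2 (0.0591), adjusted *P* in parentheses, and with all genotypes in a single fit (0.505). Without Ribo-seq *M*-cKO replicate 3 there were 3 members called lower, beside 3.64% of all genes. Without Ribo-seq Ctrl replicate 1, Ctrl replicate 3 or *M*-cKO replicate 1 there was 1 called higher, beside 1.11%, 2.82% and 2.55% of all genes. The next members in order of *P* were *Mrps11* (0.56 ± 0.17 SE, adjusted *P* = 0.0768), *Mrps34* (0.55 ± 0.16 SE, adjusted *P* = 0.0810) and *Mrpl16* (0.42 ± 0.14 SE, adjusted *P* = 0.112), none of them called. The median log2 change of TE was −0.01 over members and 0.02 over all genes.

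In *F*-cKO cortices, RNA of 0 of 76 members was higher than in Ctrl and RNA of 10 was lower, compared with 11.5% higher and 9.57% lower among all 16944 genes. The members' shares were 0% and 13.2%. At an unadjusted *P* below 0.05 edgeR gave 0 higher and 24 lower, beside 3081 and 2963 of all genes, and DESeq2 called 0 higher and 8 lower, beside 12.4% and 9.75% of all genes. The median log2 fold change was −0.08 over members and −0.01 over all genes, with 17 members above 0 and 59 below, and it stayed below 0 with RLE scaling and with DESeq2. The decreases were small except for *Mrps23*. Of the 10, 6 were large subunit and 4 small subunit members. Without Ctrl replicate 1, 2 or 3 the members called lower numbered 5, 5 and 2, and without *F*-cKO replicate 2 they numbered 4, while the share of all genes called lower fell to 5.49%, 6.97%, 3.23% and 4.68%.

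*Mrpl30*, with a bacterial counterpart, was at 24.3, 24.4 and 24.8 FPKM in Ctrl, 20.7, 20.7 and 23 in *M*-cKO, with 20.6, 20.6 and 19.5 in *F*-cKO (*F*-cKO over Ctrl, log2 −0.29 ± 0.06 SE, adjusted *P* = 0.00898). *Mrpl48*, specific to mitochondria, was at 4.64, 4.74 and 5.12 FPKM in Ctrl, 4.22, 4.06 and 4.57 in *M*-cKO, with 3.86, 3.87 and 3.47 in *F*-cKO (*F*-cKO over Ctrl, log2 −0.38 ± 0.08 SE, adjusted *P* = 0.0110). These 2 were the members called in all 11 alternative settings. *Mrpl48* overlaps *Rab6a* by 727 bases. *Mrpl20* was at 34.8, 33.7 and 34 FPKM in Ctrl, 37.9, 35.4 and 38.8 in *M*-cKO, with 28.2, 27.4 and 29.8 in *F*-cKO (*F*-cKO over Ctrl, log2 −0.27 ± 0.06 SE, adjusted *P* = 0.0168). *Mrpl34*, the most abundant member per gene length, was at 93.1, 101 and 102 FPKM in Ctrl, 106, 108 and 125 in *M*-cKO, with 88.1, 82.3 and 85.5 in *F*-cKO (*F*-cKO over Ctrl, log2 −0.22 ± 0.07 SE, adjusted *P* = 0.0416). In both, the *F*-cKO libraries were below all Ctrl libraries and the *M*-cKO libraries above them. *Mrpl12* was at 25.2, 26 and 26.6 FPKM in Ctrl, 30.4, 30.6 and 32.8 in *M*-cKO, with 22.2, 22.6 and 22.5 in *F*-cKO (*F*-cKO over Ctrl, log2 −0.22 ± 0.07 SE, adjusted *P* = 0.0458), so that Ctrl lay between the knockouts. *Mrps18a* was lower by a log2 fold change of −0.31 ± 0.07 SE, adjusted *P* = 0.0190, and overlaps *Rsph9* by 6871 bases. With the adjusted *P* in parentheses, the call was lost for *Mrpl20* without Ctrl replicate 1 (0.0618), Ctrl replicate 3 (0.0508) and *F*-cKO replicate 2 (0.0737), and for *Mrps18a* without Ctrl replicate 2 (0.0506) and Ctrl replicate 3 (0.0602). It was lost for *Mrpl34* without Ctrl replicate 1 (0.0505), Ctrl replicate 2 (0.117), Ctrl replicate 3 (0.132), *F*-cKO replicate 1 (0.0553), *F*-cKO replicate 2 (0.146) and *F*-cKO replicate 3 (0.0724), and for *Mrpl12* without Ctrl replicate 1 (0.0847), Ctrl replicate 2 (0.103), Ctrl replicate 3 (0.133), *F*-cKO replicate 1 (0.101), *F*-cKO replicate 2 (0.122) and *F*-cKO replicate 3 (0.0824). Of all 11 alternative settings, 1 kept the call of *Mrpl34* and 2 that of *Mrpl12*.

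In the small subunit, *Mrps26* was at 9.47, 10.5 and 10.3 FPKM in Ctrl, 10.7, 10.2 and 10.7 in *M*-cKO, with 8.05, 8.30 and 8.33 in *F*-cKO (*F*-cKO over Ctrl, log2 −0.31 ± 0.07 SE, adjusted *P* = 0.0174). *Mrps21*, the second most abundant member per gene length, was at 74.2, 80.1 and 75.8 FPKM in Ctrl, 76.6, 72.7 and 88.2 in *M*-cKO, with 62.6, 66.6 and 61.8 in *F*-cKO (*F*-cKO over Ctrl, log2 −0.28 ± 0.07 SE, adjusted *P* = 0.0177). The *F*-cKO libraries of both were the lowest of the 9. *Mrps6* was at 15.4, 14.8 and 17.7 FPKM in Ctrl, 16.9, 16.1 and 16.8 in *M*-cKO, with 12.2, 12 and 12.8 in *F*-cKO (*F*-cKO over Ctrl, log2 −0.38 ± 0.10 SE, adjusted *P* = 0.0212), and its gene overlaps *Slc5a3* by 29138 bases. *Mrps23* was at 4.66, 1.87 and 3.12 FPKM in Ctrl, 6.24, 2.32 and 1.80 in *M*-cKO, with 1.84, 1.10 and 0.920 in *F*-cKO (*F*-cKO over Ctrl, log2 −1.34 ± 0.36 SE, adjusted *P* = 0.0271). The fold of *Mrps23* was the largest of the 10, but it rests on between 31 and 221 reads per library and its call was lost without Ctrl replicate 1 (0.105), Ctrl replicate 3 (0.0706), *F*-cKO replicate 2 (0.0929) and *F*-cKO replicate 3 (0.0621), adjusted *P* in parentheses. That of *Mrps26* was lost without Ctrl replicate 2 (0.0562), Ctrl replicate 3 (0.0588) and *F*-cKO replicate 2 (0.0583), that of *Mrps21* without Ctrl replicate 2 (0.0610) and Ctrl replicate 3 (0.0504) and that of *Mrps6* without Ctrl replicate 1 (0.0524), Ctrl replicate 3 (0.0806) and *F*-cKO replicate 2 (0.0771).

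Footprints in *F*-cKO gave no call for any gene, 0% of 14335, and none for the 77 members (edgeR). At an unadjusted *P* below 0.05 there were 0 members higher and 1 lower, compared with 1.58% and 0.635% of all genes, and DESeq2 called 0 members in either direction. The median log2 fold change was −0.09 over members and 0.05 over all genes. Without *F*-cKO replicate 2 it turned to 0.08 over members, with −0.00 over all genes, 0 members called, and 0 higher and 2 lower at an unadjusted *P* below 0.05 (2.36% and 1.52% of all genes), so the sign of the median rested on this library. TE in *F*-cKO gave 0% of 13225 genes called with edgeR, 5 genes higher and 39 lower with DESeq2, and 0 of 76 members called with either tool. At an unadjusted *P* below 0.05 there were 0 members higher and 1 lower, compared with 3.11% and 6.18% of all genes. By DESeq2 there were 1 higher and 0 lower, beside 4.79% and 5.15% of all genes. The members' median log2 change of TE was −0.01, and without Ribo-seq *F*-cKO replicate 2 it was 0.18, beside −0.01 over all genes, with 0 members called. Without it 9 members were higher and 0 lower at an unadjusted *P* below 0.05, beside 6.14% and 7.62% of all genes. Without Ribo-seq *F*-cKO replicate 1 the members' median was −0.18, beside −0.07 over all genes. There 1 member was higher and 1 lower at this threshold, beside 11.9% and 9.75% of all genes. Without Ribo-seq *F*-cKO replicate 3 the median was −0.10, beside −0.05, with 1 higher and 7 lower, beside 10.6% and 8.78%. The median and these counts thus rested on single libraries. *Mrpl34* was the member with fewer footprints at an unadjusted *P* below 0.05, at 46.6, 57.1 and 59 RPKM in Ctrl, 62.3, 65.4 and 56.6 in *M*-cKO, with 37.7, 22.6 and 42.2 in *F*-cKO (*F*-cKO over Ctrl, log2 −0.64 ± 0.24 SE, adjusted *P* = 0.730).

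The knockouts were also compared with each other. RNA of 30 of 76 members was higher in *M*-cKO than in *F*-cKO and RNA of 1, *Mrps22*, was lower (39.5% and 1.32%), compared with 13.1% higher and 14.3% lower among all 16802 genes. The median log2 fold change was 0.15 over members and −0.00 over all genes. The largest was that of *Mrps23* (1.42 ± 0.44 SE, adjusted *P* = 0.0367), whose libraries overlapped between these genotypes. Its call was lost without *F*-cKO replicate 2 (0.117), *F*-cKO replicate 3 (0.0866) and *M*-cKO replicate 1 (0.157), adjusted *P* in parentheses. Without *M*-cKO replicate 1 its log2 fold change was 0.686, so its rank rested on this library. *Mrpl43* followed at 1.32 ± 0.07 SE, adjusted *P* = 2.27e-05, *Mrps34* at 1.01 ± 0.08 SE, adjusted *P* = 7.44e-05, *Mrpl14* at 0.85 ± 0.08 SE, adjusted *P* = 0.000120 and *Mrpl46* at 0.82 ± 0.10 SE, adjusted *P* = 0.000353. *Mrps2* differed by 0.81 ± 0.06 SE, adjusted *P* = 6.29e-05, *Mrpl51* by 0.63 ± 0.06 SE, adjusted *P* = 0.000128 and *Mrpl27* by 0.60 ± 0.09 SE, adjusted *P* = 0.00102. *Mrps7* differed by 0.58 ± 0.09 SE, adjusted *P* = 0.00159, *Mrpl50* by 0.48 ± 0.07 SE, adjusted *P* = 0.00101 and *Mrpl12* by 0.47 ± 0.07 SE, adjusted *P* = 0.00123, the last with opposite calls against Ctrl. *Mrps22* differed by −0.41 ± 0.09 SE, adjusted *P* = 0.00801. Of the 50 large subunit members tested 17 were higher and 0 lower, and of the 25 small subunit members 13 were higher and 1 lower.

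Footprints between the knockouts gave 0% of 14262 genes called and 0 of 77 members with edgeR, while DESeq2 called 4 members higher and 0 lower, beside 1.25% and 0.196% of all genes. At an unadjusted *P* below 0.05, 10 members were higher and 1 lower, compared with 4.98% and 3.11% of all genes. Without *F*-cKO replicate 2 edgeR called 0 members and 5 genes, all higher, the members' median log2 fold change went from 0.05 to −0.06, and that of all genes from −0.07 to 0.01. At an unadjusted *P* below 0.05 there were then 9 members higher and 6 lower, beside 7.30% and 6.07% of all genes. Among the 10 members higher with all libraries were *Mrpl43* (1.59 ± 0.30 SE, adjusted *P* = 0.470), *Mrps34* (1.43 ± 0.35 SE, adjusted *P* = 0.522) and *Mrpl14* (1.20 ± 0.39 SE, adjusted *P* = 0.586). The 1 lower with all libraries was *Mrps18c* (−0.91 ± 0.25 SE, adjusted *P* = 0.555). TE between the knockouts gave 0% of 13162 genes called with edgeR, 16 genes higher and 2 lower with DESeq2, and 0 members called with either tool. By either tool, 0 members were higher and 1 lower, again *Mrps18c*, at an unadjusted *P* below 0.05. The shares of all genes were 2.44% and 1.67% with edgeR, and 2.59% and 2.28% with DESeq2. Without Ribo-seq *F*-cKO replicate 2 the median log2 change of TE over members was −0.18, beside 0.04 over all genes, with 0 members called and 0 higher and 10 lower at an unadjusted *P* below 0.05, beside 7.82% and 3.36% of all genes. Without Ribo-seq *F*-cKO replicate 1 the members' median was 0.11, beside 0.03, with 5 higher and 2 lower, beside 5.98% and 8.55% of all genes. Without Ribo-seq *F*-cKO replicate 3 it was 0.05, beside 0.02, with 2 higher and 1 lower, beside 4.08% and 5.45%. The sign of this median thus depended on the library left out.

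**Figure D3:**
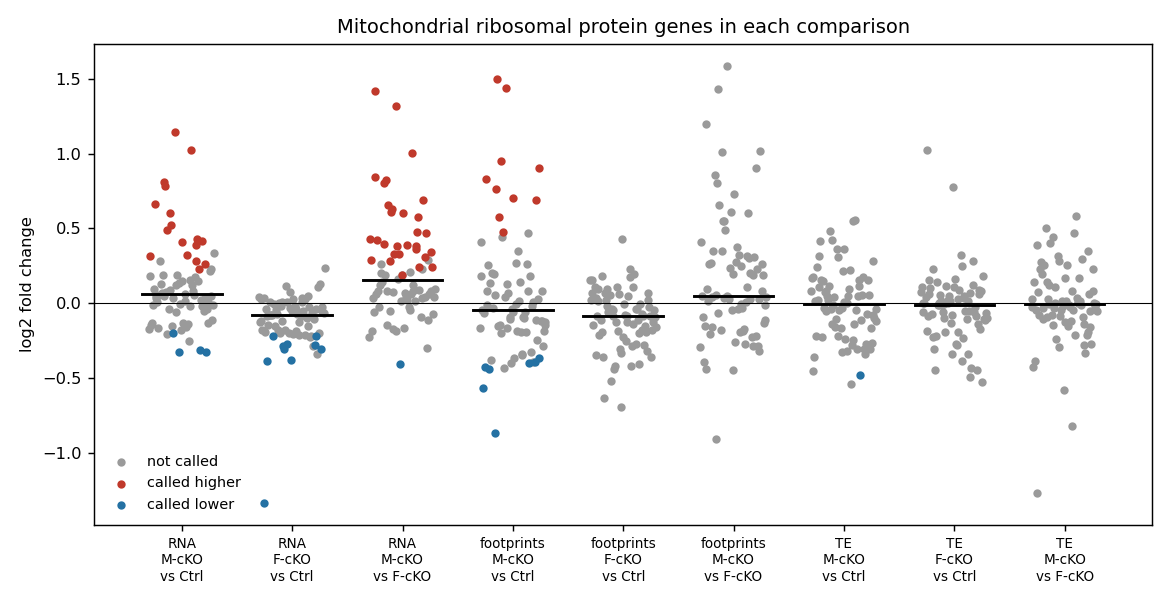
Log2 fold change of each mitochondrial ribosomal protein gene (points) for RNA, footprints and footprints relative to RNA (TE) in each comparison of genotypes, with the median as a black line and called genes in red (higher) or blue (lower). With edgeR, RNA of *M*-cKO against *F*-cKO held the most calls, 30 higher and 1 lower, and no footprint or TE comparison that used *F*-cKO held any.

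Genes that work with these proteins were followed by lists. Of the 5 mitoribosomal proteins with other names, in *M*-cKO *Gadd45gip1* (0.71 ± 0.11 SE, adjusted *P* = 0.000722) and *Chchd1* (0.32 ± 0.06 SE, adjusted *P* = 0.00325) had more RNA, and *Dap3* (−0.32 ± 0.06 SE, adjusted *P* = 0.00236), a GTP-binding small subunit protein, and *Ptcd3* (−0.33 ± 0.08 SE, adjusted *P* = 0.00735) had less. In *F*-cKO *Gadd45gip1* (0.34) was higher and *Aurkaip1* (−0.29) lower. Of these 5, *Gadd45gip1* also had more footprints in *M*-cKO (0.78 ± 0.16 SE, adjusted *P* = 0.0215). Of 25 assembly factors tested, 7 had more RNA in *M*-cKO and 0 less (28% and 0%, beside 15.5% and 14.1% of all genes), at a median log2 fold change of 0.12, and 0 of 25 were called in *F*-cKO (edgeR, with 0 higher and 3 lower at an unadjusted *P* below 0.05). The largest was *Ddx28*, an RNA helicase needed for the large subunit (1.07 ± 0.09 SE, adjusted *P* = 2.22e-05), followed by *Mterf4* (0.51), *Mrm3* (0.49), *Mrm2* (0.42) and *Rbfa* (0.42). Footprints were higher for 6 of 26 assembly factors in *M*-cKO and lower for 0 (23.1% and 0%, beside 7.13% and 7.5% of all genes), again with *Ddx28* first (0.96 ± 0.09 SE, adjusted *P* = 0.00334).

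Of 10 translation factors, *Tsfm* (0.46) and *Tufm* (0.23), the elongation factor pair, had more RNA in *M*-cKO and 0 had less (20% and 0%, beside 15.5% and 14.1% of all genes), with 2 higher and 2 lower at an unadjusted *P* below 0.05, while 0 of 10 were called in *F*-cKO in either direction, also at an unadjusted *P* below 0.05. In footprints of *M*-cKO, *Tsfm* (0.59) was higher and *Mtrf1* (−0.69) lower. Of 11 genes of mitochondrial transcription and messenger RNA handling, *Twnk* and *Taco1* (0.44) had more RNA in *M*-cKO (18.2%, beside 15.5% of all genes) and 0 of 11 were called in *F*-cKO (1 higher and 0 lower at an unadjusted *P* below 0.05), and *Taco1* (0.50) had more footprints in *M*-cKO. Of 11 regulators of mitochondrial biogenesis, 5 had more RNA in *M*-cKO (45.5%, beside the same 15.5%), *Ppargc1b* (1.34), *Pprc1* (0.52), *Nrf1* (0.27), *Gabpb1* (0.26) and *Yy1* (0.22), and *Pprc1* (0.33) had more footprints. In *F*-cKO, *Gabpa* (0.27) and *Gabpb1* (0.23) were higher and *Myc* (−0.39) lower, of 10 tested.

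RNA encoded by mitochondrial DNA was followed next. The small ribosomal RNA *mt-Rnr1*, on which the small subunit is built, was at 361, 309 and 404 FPKM in Ctrl, 250.1, 281 and 219.6 in *M*-cKO, with 189, 228 and 252 in *F*-cKO, lower in *M*-cKO (−0.53 ± 0.11 SE, adjusted *P* = 0.00366) and in *F*-cKO (−0.69 ± 0.12 SE, adjusted *P* = 0.00536). The large ribosomal RNA *mt-Rnr2* of the large subunit was at 307, 271 and 398 FPKM in Ctrl, 213, 209 and 166 in *M*-cKO, with 174, 209.8 and 224 in *F*-cKO, lower in *M*-cKO (−0.74 ± 0.13 SE, adjusted *P* = 0.00182) and in *F*-cKO (−0.70 ± 0.14 SE, adjusted *P* = 0.00913). For both, no knockout library reached the Ctrl range. Of the 13 messages from mitochondrial DNA, 11 were lower in *M*-cKO and 9 in *F*-cKO and 0 were higher in either (edgeR, 0 higher also at an unadjusted *P* below 0.05), at median log2 fold changes of −0.57 and −0.52. The shares lower were 84.6% and 69.2%, beside 14.1% and 9.57% of all genes. Footprints on these messages summed to 31.4, 41 and 70.4 RPKM in Ctrl, 71.5, 216 and 38.8 in *M*-cKO, with 68.4, 214 and 40.3 in *F*-cKO, *mt-Nd5* being the most abundant and *mt-Atp6*, *mt-Co2* and *mt-Nd4l* listed at 0. The genotypes overlapped, and replicate 2 was far above the other replicates in both knockouts. In *M*-cKO, *mt-Nd4* and *mt-Nd5* were called higher, at 3.12 ± 0.71 SE, adjusted *P* = 0.0311 and 2.91 ± 0.67 SE, adjusted *P* = 0.0315, in a group that holds this replicate 2. Values of these calls without it are not reported here. *mt-Rnr1* and *mt-Rnr2* are listed at 0 RPKM in all Ribo-seq libraries.

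For comparison, 2 further lists were counted. Of 84 cytosolic ribosomal proteins tested, RNA of 10 was higher and 0 lower in *M*-cKO (median 0.09, with 17 higher and 2 lower at an unadjusted *P* below 0.05), and 0 higher and 18 lower in *F*-cKO (median −0.13). These shares were 11.9% and 0% in *M*-cKO, beside 15.5% and 14.1% of all genes, and 0% and 21.4% in *F*-cKO, beside 11.5% and 9.57%. Of 73 nuclear-encoded respiratory chain subunits, 4 were higher and 15 lower in *M*-cKO (median −0.09), and 0 higher and 32 lower in *F*-cKO (median −0.19), which is 5.48% and 20.5% in *M*-cKO, with 0% and 43.8% in *F*-cKO. In footprints of *M*-cKO, 4 of 83 cytosolic ribosomal proteins were higher and 8 lower (4.82% and 9.64%), and 4 of 74 respiratory chain subunits were higher and 11 lower (5.41% and 14.9%), beside 7.13% and 7.5% of all genes. The members' median of 0.06 in *M*-cKO RNA lay between those of these lists, and their median in *F*-cKO of −0.08 was closer to 0 than either. Between the knockouts, RNA of 30 of 84 cytosolic ribosomal proteins was higher in *M*-cKO and 0 lower (35.7% and 0%), and RNA of 16 of 73 respiratory chain subunits was higher and 5 lower (21.9% and 6.85%), beside 39.5% and 1.32% of the members. No test of a difference between lists was made.

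Markers of nearby tissue and of other cell types were followed beside these results. Markers of ganglionic eminence and striatum, next to the cortex, moved with *M*-cKO. In RNA 12 of 13 were higher and 0 lower (median 1.06), beside 15.5% and 14.1% of all genes. In footprints 9 of 13 of these markers were higher and 0 lower (median 1.24), beside 7.13% and 7.5%. Their summed RNA was 94, 92.6 and 91.7 FPKM in Ctrl, 181, 169.6 and 131 in *M*-cKO, with 129, 102 and 90.2 in *F*-cKO, *Dlx1* being the most abundant and none at 0. Their summed footprints were 64.5, 42.8 and 46.1 RPKM in Ctrl, 141, 152 and 72.7 in *M*-cKO, with 59.7, 41.6 and 49.6 in *F*-cKO. In *F*-cKO RNA 7 of 13 were higher and 0 lower (median 0.48), beside 11.5% and 9.57% of all genes. What part tissue next to the cortex has in the members' changes was not tested.

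Of 8 meningeal markers, 4 were lower in *F*-cKO RNA (median −1.19) and 0 of 8 were called in *M*-cKO (edgeR, 0 also at an unadjusted *P* below 0.05), with summed levels of 15.4, 29.5 and 15.8 FPKM in Ctrl, 8.75, 29.1 and 38.4 in *M*-cKO, with 10, 4.22 and 12.2 in *F*-cKO, *Col3a1* being the most abundant and none at 0. Of 8 endothelial markers, 3 were lower in *F*-cKO RNA and 1, *Slco1c1*, in *M*-cKO RNA (−1.73 ± 0.18 SE, adjusted *P* = 8.03e-05), with summed levels of 60.6, 64 and 68.1 FPKM in Ctrl, 45.3, 56.9 and 62.9 in *M*-cKO, with 49.5, 43.5 and 43.1 in *F*-cKO and none at 0. Footprints of *M*-cKO were lower for *Slco1c1* too, 1 of 8. Of 9 erythroid markers, 2 embryonic globin genes, *Hbb-y* and *Hba-x*, were higher in both knockouts in RNA (3.26 and 1.78 in *M*-cKO) and in *M*-cKO footprints, and *Hbb-bs* was lower in *F*-cKO RNA. Their summed RNA was 487, 879.7 and 476 FPKM in Ctrl, 490.1, 589.8 and 730.4 in *M*-cKO, with 429, 365 and 523 in *F*-cKO, *Hba-a1* being the most abundant. Microglial markers gave 0 calls of 8 in both assays and both knockouts, with 0 higher and 1 lower at an unadjusted *P* below 0.05 in *M*-cKO RNA and 0 and 2 in *F*-cKO RNA. Of 6 choroid plexus markers tested, *Otx2* was higher in *M*-cKO RNA and 0 of 5 were called in *F*-cKO RNA or in footprints, with summed RNA of 70.9, 811 and 319 FPKM in Ctrl, 439, 514 and 598 in *M*-cKO, with 399, 277 and 388 in *F*-cKO, *Ttr* being the most abundant and none at 0. Their part in the members' changes was not tested. In *M*-cKO, 15.5% of all genes were called higher and 14.1% lower in RNA, and 7.13% and 7.5% in footprints. The shares in *F*-cKO RNA were 11.5% and 9.57%. The endothelial share lower (12.5%) and the choroid plexus share higher (16.7%) in *M*-cKO RNA were thus near those of all genes. In footprints of *F*-cKO edgeR called no gene of any list, and none of all 14335 genes. The lack of calls there thus says nothing on any list, the microglial and choroid plexus markers included. In RNA of *M*-cKO against *F*-cKO, edgeR called 4 of 8 meningeal markers (median 1.43), 5 of 9 erythroid, 7 of 13 ganglionic eminence and striatum, 2 of 8 microglial and 2 of 6 choroid plexus markers higher and 0 of these lower, and 2 of 8 endothelial markers higher and 1 lower. Of all genes, 13.1% were called higher and 14.3% lower in that comparison.

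What the members share beyond their name was looked for in their promoters, since genes for a single ribosome lay on 17 chromosomes. RefSeq windows of 300 bases around listed starts (build GRCm38.p6) matched 69 of the 78 members with 75 windows, and *Mrps34*, *Mrpl19*, *Mrpl15*, *Mrps35*, *Mrpl4*, *Mrps28*, *Mrpl13*, *Mrpl54* and *Mrpl38* had none. Of these windows, 15 began past the outermost annotated start of their gene, and 12 members had only such windows. Motifs were searched on both strands. The NRF1 motif GCGCANGCG was in 21.3% of member windows and 6.25% of all 32851 windows. The motif CCGGAAG of ETS factors such as GABPA was in 34.7% and 8.86%. The motif AAGATGGCG of YY1 was in 10.7% and 1.40%, TATAAA in 6.67% and 13.6%, and CCAAT in 40% and 37.4%. The same motifs, in the order NRF1, ETS and YY1, were in 12.8%, 34.6% and 7.69% of 78 windows of cytosolic ribosomal proteins and in 30.3%, 24.2% and 10.6% of 66 windows of respiratory chain subunits. Among the 14 windows of members with higher RNA in *M*-cKO, 4 held the NRF1 motif, 5 the ETS motif and 0 the YY1 motif, compared with 12, 21 and 8 of the 61 windows of other members. TATAAA was in 3 of the 14 and 2 of the 61, and CCAAT in 3 of the 14 and 27 of the 61. No difference between these sets was tested. A match describes the letters and is not a binding site. The windows of 4 members whose footprints rose in *M*-cKO are given 5′ to 3′ on the strand of the gene, with capitals marking the matches, as examples of the NRF1, ETS and YY1 motifs. *Mrpl43* holds the ETS motif at 2 places, *Mrpl14* holds the NRF1 motif in a window that begins 377 bases past its outermost start and covers the start of *Tmem63b*, *Mrps12* holds the ETS motif, and *Mrps11* holds the YY1 motif on the opposite strand, in a window that also covers the start of *Mrpl46*.
*Mrpl43*, chr19:45006393-45006692, minus strand: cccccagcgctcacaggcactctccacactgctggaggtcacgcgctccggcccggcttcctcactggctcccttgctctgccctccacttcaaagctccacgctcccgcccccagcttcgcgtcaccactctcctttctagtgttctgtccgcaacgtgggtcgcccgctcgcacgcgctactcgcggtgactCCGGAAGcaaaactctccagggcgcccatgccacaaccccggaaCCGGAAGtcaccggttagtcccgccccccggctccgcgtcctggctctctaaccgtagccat
*Mrpl14*, chr17:45686099-45686398, plus strand: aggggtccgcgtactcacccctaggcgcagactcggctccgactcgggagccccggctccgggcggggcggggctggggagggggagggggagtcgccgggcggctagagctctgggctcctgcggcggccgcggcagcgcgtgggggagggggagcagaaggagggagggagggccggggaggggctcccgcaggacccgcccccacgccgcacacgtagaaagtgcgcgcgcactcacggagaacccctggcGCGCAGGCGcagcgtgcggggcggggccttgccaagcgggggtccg
*Mrps12*, chr7:28741772-28742071, minus strand: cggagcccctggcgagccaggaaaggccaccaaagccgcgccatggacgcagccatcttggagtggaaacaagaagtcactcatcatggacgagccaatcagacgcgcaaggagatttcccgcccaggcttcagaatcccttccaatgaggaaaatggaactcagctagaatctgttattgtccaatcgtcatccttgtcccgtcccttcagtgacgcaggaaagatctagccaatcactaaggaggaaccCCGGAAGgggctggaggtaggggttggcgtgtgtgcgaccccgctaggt
*Mrps11*, chr7:78782881-78783180, plus strand: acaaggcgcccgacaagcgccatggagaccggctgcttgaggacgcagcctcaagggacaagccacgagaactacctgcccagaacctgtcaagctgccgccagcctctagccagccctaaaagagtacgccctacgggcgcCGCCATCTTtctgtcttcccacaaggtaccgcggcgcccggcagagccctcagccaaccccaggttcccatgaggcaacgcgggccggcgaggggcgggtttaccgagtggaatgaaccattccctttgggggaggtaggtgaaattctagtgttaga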

How the data were processed

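RNA-seq and Ribo-seq of E15.5 mouse cortex were analysed from the processed tables, 3 libraries per genotype and assay, grouped by the labels. The submitters' processing notes name HISAT2 2.0.5, TopHat2, HTSeq and DESeq2 1.14.1 and the build mm10. RNA-seq read counts and FPKM values were deposited per gene and library, the counting tool not being given in the sources used here. Ribo-seq footprint counts, made with HTSeq after mapping, and RPKM values were deposited likewise by the authors. Neither kind of count is stated to use strand. Of 54838 genes in the Ribo-seq count table, 40490 hold no value in 8 of the 9 libraries and were left out of the tests, which leaves 14348, while an alternative filled 12053 of them from RPKM where the count came out whole within 0.05.

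Symbols were matched for 54723 gene identifiers. Low counts were removed with filterByExpr (at least 10 counts, at least 15 in total). Libraries were scaled by TMM, and genes were tested in R 4.3.3 with the quasi-likelihood test of edgeR 4.0.16 (limma 3.58.1) on the 6 libraries of each pair of genotypes. Footprints relative to RNA were tested as the interaction of assay and genotype on 12 libraries. *P* values were adjusted by Benjamini-Hochberg over all genes tested, with calls below 0.05, and standard errors were derived from the test statistic. The code was tested on simulated data. Alternatives were DESeq2 1.42.0, RLE scaling, no filter, a joint fit of all genotypes, a block for the replicate number, protein-coding genes, filled blanks, scaling within each assay, pseudocounts for TE and leaving out each library.

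All members could be named. Those given in full were, per comparison, up to 10 higher and 10 lower by smallest adjusted *P*, the 5 highest and 5 lowest in Ctrl FPKM, RPKM and TE, the *Mrps18* paralogs, *Mrpl43*, members overlapping another gene, *Mettl3*, *Fto* and genes of the lists. Members and lists were chosen with earlier results of these data known. Gene positions and promoters were those of RefSeq GRCm38.p6. Of 10 erythroid markers *Ahsp* was not matched. RNA levels and calls of the cortical markers are not reported here.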

Additional observations from a re-analysis of the deposited data

Results flagged for a closer look

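*Mrpl12* RNA differed between the knockouts by 0.469 on the log2 scale (*M*-cKO against *F*-cKO), and it stood out because it was called higher in *M*-cKO and lower in *F*-cKO against the same Ctrl libraries, the difference being tested directly with edgeR. The call against Ctrl was kept in 10 of 11 alternative settings in *M*-cKO and in 2 of 11 in *F*-cKO, and the direct difference in all 11. *Mrpl3* footprints relative to RNA changed by -0.481 on the log2 scale in *M*-cKO against Ctrl, and it stood out as the 1 member whose change differed between the assays by the interaction test of edgeR, where DESeq2 called 2 members higher and 1 lower. This call of *Mrpl3* was kept in 10 of 19 alternative settings.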

How the results depend on the processing

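No called member reversed its direction under any alternative. Over the called members, 922 values under alternatives were computed, of which 735 kept the call and 187 lost it. Calls held under each alternative for 13 of 21 members in RNA of *M*-cKO against Ctrl, 2 of 10 in RNA of *F*-cKO against Ctrl, 24 of 31 in RNA of *M*-cKO against *F*-cKO, 0 of 17 in footprints of *M*-cKO and 0 of 1 in TE of *M*-cKO. Fits without 1 library assume that a remaining pair varies like the other group.

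With all genotypes in a single fit, *M*-cKO against *F*-cKO RNA gave 2 members lower, footprints of *M*-cKO against Ctrl gave 0 higher and 0 lower, and TE of *M*-cKO gave 0 lower. Of all genes, 14.6% were lower in the first, 0.202% higher and 0.0419% lower in the second, and 0.0226% lower in the last. With DESeq2, footprints of *M*-cKO against *F*-cKO gave 4 members higher and TE of *M*-cKO against Ctrl gave 2 higher. Leaving out each library in turn gave between 0 and 4 members lower in RNA of *M*-cKO, between 2 and 8 lower in RNA of *F*-cKO, between 3 and 10 higher and 0 and 7 lower in footprints of *M*-cKO, and between 0 and 1 higher and 0 and 3 lower in TE of *M*-cKO. In the same order, the shares of all genes were 8.65% to 12.4%, 3.23% to 9.26%, 0.804% to 9.09% and 0.433% to 8.67%, and 0.347% to 4.33% and 0.143% to 3.64%. With a pseudocount of 1 the median TE in Ctrl was 1.28. The cause was not tested.

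Replicate numbers were not taken to pair the libraries, since in none of 6 comparisons did all 3 same-numbered pairs correlate above 0.1 in their deviations. These pairs joined different genotypes within an assay. Whether same-numbered RNA-seq and Ribo-seq libraries pair was not examined, and the main test of TE took them as unpaired. The correlations lay between -0.29 and 0.19 in RNA and between -0.39 and 0.19 in footprints. With the replicate number as a block, footprints of *M*-cKO gave 8 members higher and 2 lower, beside 4.76% and 4.46% of all genes. RNA of *M*-cKO gave 17 and 3, beside 14.2% and 12.1%, and RNA of *F*-cKO 0 and 7, beside 7.52% and 5.05%. RNA of *M*-cKO against *F*-cKO gave 26 and 1, beside 10.9% and 11.2%, and TE of *M*-cKO 0 and 1, beside 1.749% and 1.128%. Each of these shares of all genes was below that of the fit without the block. Footprint depth was lowest in *F*-cKO replicate 2 (10973699), followed by *M*-cKO replicate 2 (13764136), and what depth limits in the footprint calls was not tested apart from other differences of the first library.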
